A study of Mus musculus with 12 samples.

Results

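The response of *Elk4* heterozygous (HZ) bone marrow-derived mast cells (BMMCs) to stimulation through FcϵRI was compared with that of wild-type (WT) BMMCs. The response of a genotype is the log2 fold change of a gene from unstimulated to stimulated cells. The response difference is the HZ response minus the WT response, an interaction in which 8 of the 12 libraries of the series enter with 2 libraries in each of 4 groups. It was examined for all 12208 genes that passed a filter on low counts, of 16234 genes listed, whether or not WT cells responded. A response difference of 1 means that the fold change was 2 times as large in HZ as in WT. A positive value says only that the HZ response was the more positive of the pair, and can belong to a gene that rose more, fell less or turned from falling to rising.

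BMMCs are mast cells grown from mouse bone marrow in medium with IL-3 and SCF, here for 4 to 8 weeks. The mice were young adult C57BL/6N animals of both sexes with WT littermates as controls. The *Elk4* allele was a conventional knockout, so it affected every cell of the animal and not only mast cells. By the labels, more than 80% of the cultured cells carried both CD117 and FcϵRI, and nothing says that the remaining cells were removed. Stimulated BMMCs of each genotype had been sensitized overnight with 0.5 µg/ml anti-DNP IgE and then received 100 ng/ml DNP-HSA for 1 h (IgE-DNP/HSA). The other libraries of each genotype are labelled untreated, and it is not stated whether those cells had taken up IgE. The remaining genotype, homozygous knockout (KO) BMMCs with or without the same stimulation, entered the model and is used below for values side by side. Nothing in the labels says whether replicates 1 and 2 of a group came from separate animals or cultures, so the p-values measure only the spread between these libraries, which may be technical.

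FcϵRI is the high-affinity IgE receptor of mast cells. When antigen cross-links receptor-bound IgE, kinases, calcium and the MAP kinase cascade switch on a first wave of transcription factor genes, the immediate-early genes, within minutes, followed by genes for cytokines and chemokines. ELK4 is a ternary complex factor (TCF), an ETS-family protein that binds DNA together with serum response factor (SRF) at many immediate-early promoters and is phosphorylated by MAP kinases. A CArG box is the binding site of SRF, and a cAMP response element (CRE) is bound by CREB and related factors, with TGACG as its core. E2F factors bind TTTGGCGC and drive S-phase genes.

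Promoter windows are shown for 4 immediate-early genes and 1 replication gene whose responses were higher in HZ than in WT, because these are the kinds of gene on which the results below turn. Each runs from 250 bases before to 50 bases after a RefSeq transcription start, in the direction of the gene, and comes from RefSeq on GRCm38.p6. The counts of this series were made on another build, GRCm39. Capitals mark CRE cores and CArG boxes on either strand in the first 4 windows and an E2F site in the last.
*Nr4a1*, chr15:101266596-101266895, + strand: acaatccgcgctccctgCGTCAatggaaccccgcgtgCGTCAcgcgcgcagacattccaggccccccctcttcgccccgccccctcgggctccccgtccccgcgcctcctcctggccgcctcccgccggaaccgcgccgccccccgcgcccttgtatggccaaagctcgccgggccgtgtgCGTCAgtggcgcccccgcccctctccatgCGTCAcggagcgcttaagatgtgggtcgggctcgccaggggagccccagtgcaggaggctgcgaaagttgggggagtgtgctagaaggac
*Egr2*, chr10:67537619-67537918, + strand: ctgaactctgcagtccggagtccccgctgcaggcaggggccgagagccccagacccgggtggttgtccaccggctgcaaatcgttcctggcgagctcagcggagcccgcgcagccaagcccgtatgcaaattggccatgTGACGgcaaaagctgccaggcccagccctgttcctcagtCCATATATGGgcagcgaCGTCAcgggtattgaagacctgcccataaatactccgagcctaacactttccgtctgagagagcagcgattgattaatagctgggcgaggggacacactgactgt
*Fosb*, chr7:19309996-19310295, - strand: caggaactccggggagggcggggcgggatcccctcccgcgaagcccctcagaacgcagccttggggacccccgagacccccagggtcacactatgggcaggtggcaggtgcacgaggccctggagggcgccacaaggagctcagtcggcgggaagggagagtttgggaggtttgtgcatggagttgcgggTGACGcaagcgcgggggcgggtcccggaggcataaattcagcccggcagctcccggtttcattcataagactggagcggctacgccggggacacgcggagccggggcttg
*Atf3*, chr1:191183284-191183583, - strand: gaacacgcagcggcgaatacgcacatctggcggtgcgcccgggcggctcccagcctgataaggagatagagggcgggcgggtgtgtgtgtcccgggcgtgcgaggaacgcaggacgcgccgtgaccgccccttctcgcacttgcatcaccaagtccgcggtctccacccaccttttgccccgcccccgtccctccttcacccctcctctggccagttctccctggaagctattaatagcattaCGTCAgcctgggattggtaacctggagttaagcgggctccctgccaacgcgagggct
*Mcm5*, chr8:75109259-75109558, + strand: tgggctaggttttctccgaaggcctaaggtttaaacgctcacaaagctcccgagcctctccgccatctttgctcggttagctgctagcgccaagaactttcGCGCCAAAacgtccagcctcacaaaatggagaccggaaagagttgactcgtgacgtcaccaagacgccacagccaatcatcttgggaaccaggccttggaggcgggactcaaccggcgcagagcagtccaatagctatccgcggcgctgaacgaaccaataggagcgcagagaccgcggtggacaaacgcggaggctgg

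For *Egr2*, 5 windows were listed, and the first that held both a CRE core and a CArG box is shown, so the presence of both was set by that choice. The other genes shown had 1 window each. The *Nr4a1* window held 4 CRE cores, the *Egr2* window 2 cores and 1 CArG box, and the *Fosb* and *Atf3* windows 1 core each. All 4 cores of *Nr4a1* read on the other strand, and they began 233, 213, 69 and 40 bases before the start. Promoter windows were found for 9828 of the 12208 genes tested, by NCBI Gene number, and motifs were counted on both strands. A gene was counted for a motif if any of its listed windows held it, so the shares are of genes. Genes with more windows have more room for a match, which was not adjusted for. Of these 9828 genes, 35.3% held TGACG, 1.5% a CArG box and 1.12% TTTGGCGC. Among the 26 of 33 immediate-early genes with a window, 69.2% held TGACG and 7.69% a CArG box. Among 34 S-phase genes with a window, 20.6% held TTTGGCGC. CCAAT is a box common in promoters of cell cycle genes. It was found for 43.3% of all genes with a window, 70.6% of these S-phase genes and 73.9% of 46 G2/M genes. Over all genes whose response was higher in HZ by at least 1.5-fold, the shares were 39.3% for TGACG, 1.92% for a CArG box, 3% for TTTGGCGC and 51.1% for CCAAT. Over genes lower by at least 1.5-fold they were 30%, 1.34%, 0.191% and 42.6%. CCGGAAGT is a site of ETS-family proteins such as ELK4. It was found for 9.33% of all genes with a window and for 9.25% of those higher in HZ by at least 1.5-fold. The site was found for 3.44% of those lower by at least 1.5-fold and for 0 of the 26 immediate-early genes. These are matches of letters in short windows, and binding was not measured.

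Library totals lay between 29697958 and 35531667 counts on genes, and the biological coefficient of variation, edgeR's measure of the spread between replicates, was 4.01%. The standard error of the response difference had a median of 0.076 over the 5514 genes averaging 1000 counts or more and 0.848 over the 2350 genes with fewer than 100. *Elk4* itself had 2426 and 2740 counts in unstimulated WT libraries and 3238 and 2837 in unstimulated HZ libraries. It had 2322 and 1995 in stimulated WT and 2139 and 1883 in stimulated HZ libraries, against 2613 and 2253 in unstimulated and 1867 and 1971 in stimulated KO libraries. Counts of *Elk4* thus did not follow the genotype labels, and a deletion inside the gene need not show in its total count. Groups are therefore named by their labels, and no library could be checked against its genotype from these counts. The paper reports that a western blot of WT, HZ and KO BMMCs showed the deletion, without naming these libraries. Unstimulated HZ libraries stood apart from unstimulated WT, with 51.4% of genes called different at an adjusted p below 0.05, against 34.9% for stimulated HZ and stimulated WT. Whether this gap belongs to the genotype or to the cultures from which these 2 libraries were made cannot be told apart, since the labels name no batch. In bulk libraries, fewer cells of a type and less RNA per cell cannot be told apart.

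The response differed between HZ and WT in 4705 genes. It was higher in HZ in 2429 genes, 19.9% of those tested, and lower in 2276 genes, 18.6%, as judged by edgeR's quasi-likelihood test (adjusted p < 0.05). With a size of at least 1.5-fold, 1025 genes (8.4%) were higher and 657 (5.38%) lower. The direction of small differences depended on scaling: higher calls made up 51.6% of the 4705 with TMM factors and 64.4% with library totals in their place. The quartiles of the response difference over all genes were -0.27 and 0.30, and the 95th percentile was 1.17. Taken over genes, whose values are no replicates of each other, the WT and HZ responses had a Spearman correlation of 0.567. With 2 libraries per group, the ranges of the WT and HZ responses did not overlap in 54.8% of genes tested. Among called genes these were 99% of the higher and 98.8% of the lower ones. A lack of overlap therefore sets a called gene little apart. Overlap of levels, named for single genes below, was not counted over all genes.

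**Figure D1:**
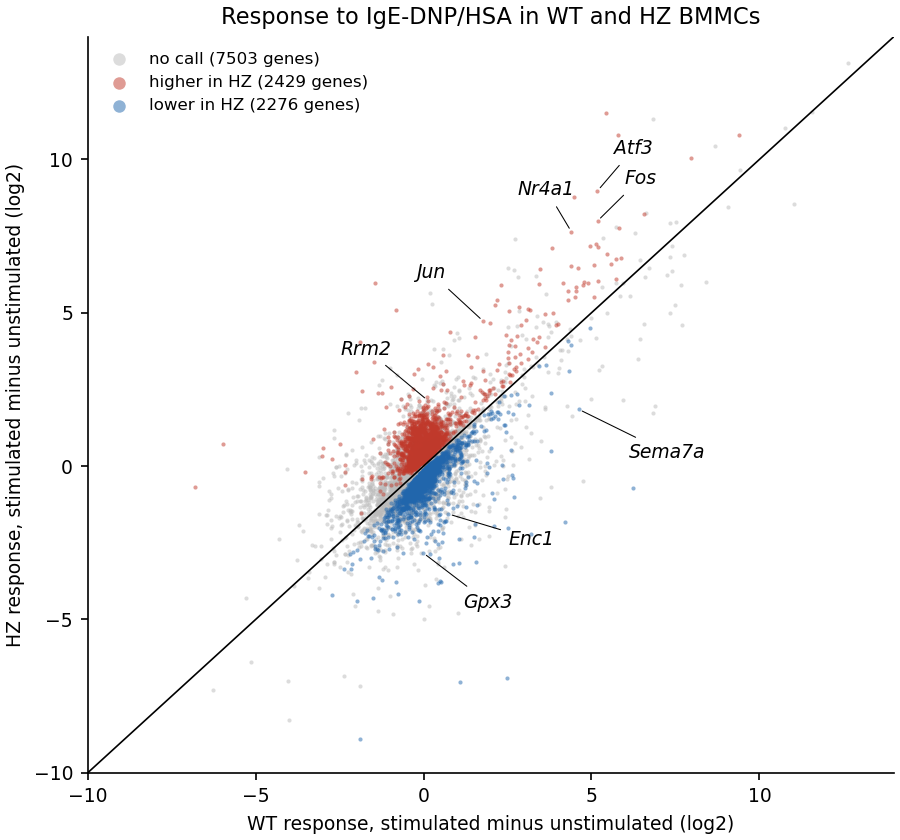
Log2 response of each gene tested in WT BMMCs (x axis) and HZ BMMCs (y axis), with genes coloured by whether the response was higher (2429), lower (2276) or not called different (7503) in HZ, and the diagonal marking equal responses. *Nr4a1*, *Fos*, *Atf3* and *Jun*, at the upper right, lie above the diagonal, while *Rrm2* rose in HZ from a WT response near 0.

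Higher responses took several forms. In 816 of the 2429 genes (33.6%) the gene rose in both genotypes and rose more in HZ. In 1075 genes (44.3%) the WT response was not called and the HZ response rose. In 274 genes (11.3%) the gene fell in WT and rose in HZ. Among the 2276 genes with a lower response, 657 (28.9%) fell in both genotypes, 875 (38.4%) fell in HZ with no call in WT, and 253 (11.1%) rose in WT and fell in HZ.

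The unstimulated libraries carried the larger part of the difference. Of the 1025 genes higher by at least 1.5-fold, 884 (86.2%) had a larger HZ and WT difference in unstimulated than in stimulated cells. Their median level in HZ relative to WT was -0.80 on the log2 scale before stimulation and 0.19 after it. Of the 657 genes lower by at least 1.5-fold, 461 (70.2%) differed more before stimulation, with a median of 0.68 before and -0.22 after. By these medians, genes with a higher response started lower in HZ and ended near the WT level, and genes with a lower response started higher. Single genes ended on either side of WT. The stimulated level was not called different from WT in 489 of the 1025 and 292 of the 657 genes, and in the rest it was. The response difference is by its construction the stimulated difference minus the unstimulated difference. A gene picked for a higher response is thus prone to a low unstimulated level in HZ, so these medians follow in part from the choice. Both parts are given for many of the genes below, and for others only the response difference or 1 state.

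**Figure D2:**
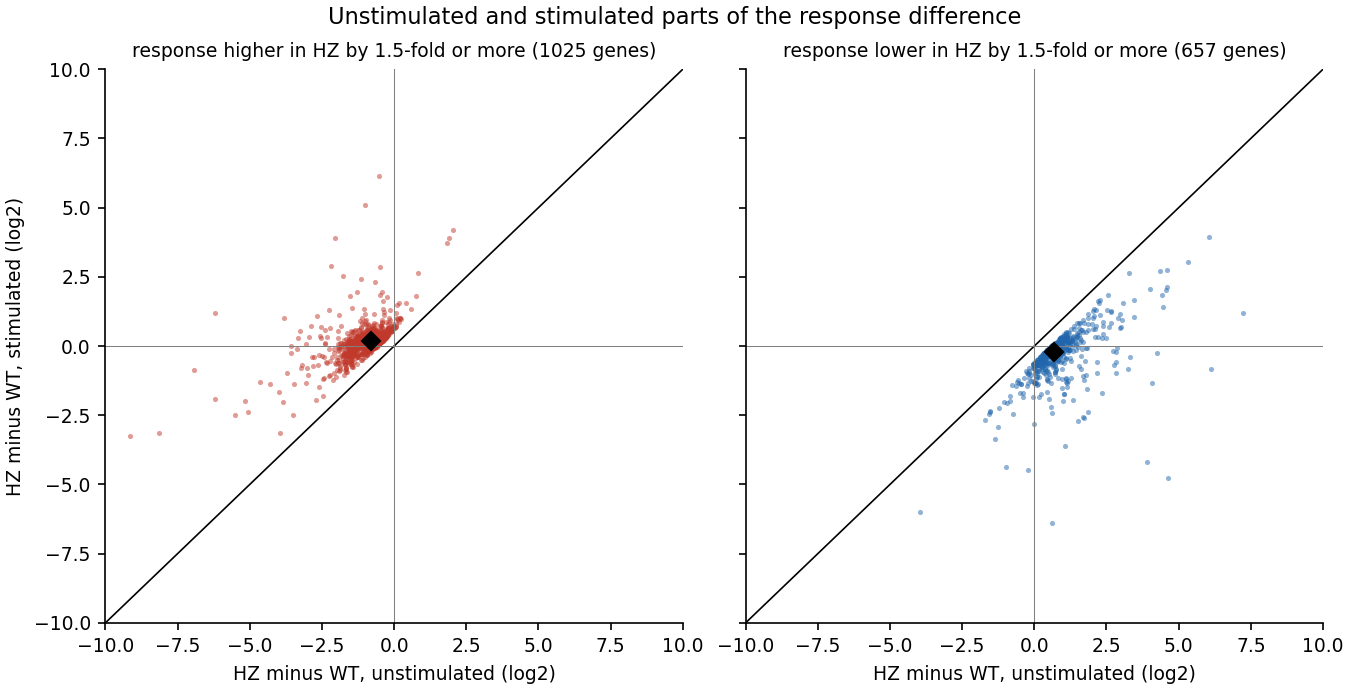
Log2 difference HZ minus WT in unstimulated (x axis) and stimulated (y axis) BMMCs for the 1025 genes with a response higher in HZ (left) and the 657 with a response lower in HZ (right) by 1.5-fold or more. The diamond marks the median, at -0.80 and 0.19 on the left and at 0.68 and -0.22 on the right, and the diagonal marks equal differences in both states.

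Immediate-early transcription factor genes had the more positive response in HZ. They were lower in unstimulated HZ BMMCs and reached about the WT level after IgE-DNP/HSA. Of 33 such genes tested, 25 were higher and 4 lower in response, where 19.9% and 18.6% of all genes were. The median response was 2.55 in WT and 3.91 in HZ, and the median response difference was 1.19, against 0.01 over all genes. Before stimulation their median level in HZ was 1.14 below WT on the log2 scale, and after stimulation it was 0.05 below. Their summed level was 9340 to 9430 CPM (counts scaled to library size by TMM) in the unstimulated WT libraries and 4290 to 4330 in the unstimulated HZ libraries. After stimulation it was 54400 to 55600 in WT and 52600 to 53300 in HZ.

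*Nr4a1*, an orphan nuclear receptor induced by calcium and MAP kinase signals, had 10774 and 11322 counts in unstimulated WT and 1127 and 1016 in unstimulated HZ. Stimulated WT libraries held 201602 and 206699 counts and stimulated HZ libraries 204480 and 188864. In CPM the HZ libraries lay below the WT libraries in both states, far apart before stimulation and by -0.12 on the log2 scale after it. Its response was 4.40 in WT and 7.64 in HZ, a difference of 3.24 (SE 0.03, adjusted p = 6.5e-49). *Egr2*, a zinc finger factor, had 8767 and 8765 counts in unstimulated WT and 724 and 757 in unstimulated HZ, and 107903 and 107885 against 99557 and 90894 after stimulation. Its response difference was 3.31 (SE 0.04). *Fosb*, whose product pairs with JUN proteins to form AP-1, had 21044 and 21900 counts in unstimulated WT and 2639 and 2513 in unstimulated HZ, and 81196 and 83234 against 92966 and 86348 after stimulation. The difference for *Fosb* was 3.11 (SE 0.04).

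In *Jun* and *Atf3* the stimulated HZ libraries exceeded the WT libraries, by 0.38 and 0.53 on the log2 scale. *Jun*, which encodes the partner of FOS proteins in AP-1, went from 14213 and 14705 to 42975 and 43645 counts in WT and from 2415 and 2431 to 61319 and 56755 in HZ, a response difference of 2.95 (SE 0.04). *Atf3*, a stress-induced partner of AP-1 factors, went from 1045 and 955 to 31394 and 31953 counts in WT and from 114 and 93 to 50301 and 45757 in HZ, with a difference of 3.80 (SE 0.08, adjusted p = 8.3e-36). In both genes neither pair of groups overlapped, with HZ below WT before and above WT after stimulation. *Fos* rose by 5.18 in WT and 7.99 in HZ, and *Csrnp1*, a nuclear factor first found as an AXIN1-induced gene, by 3.45 and 5.93. *Egr1* differed by 2.01 (SE 0.03) and *Egr3* by 1.84 (SE 0.03). *Egr4* had 1 and 9 counts in the unstimulated HZ libraries against 413 and 355 in WT, and it also stayed lower after stimulation, at 2185 and 1977 against 7353 and 7632. Its difference of 4.30 (SE 0.31) was 3.43 without unstimulated HZ replicate 1 and 6.51 without unstimulated HZ replicate 2. The 4 members with a lower response were *Nab2* (-1.68), *Klf10* (-0.72), *Mafk* (-0.54) and *Nab1* (-0.41), chosen here after their values were seen. NAB1 and NAB2 are corepressors of EGR factors.

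**Figure D3:**
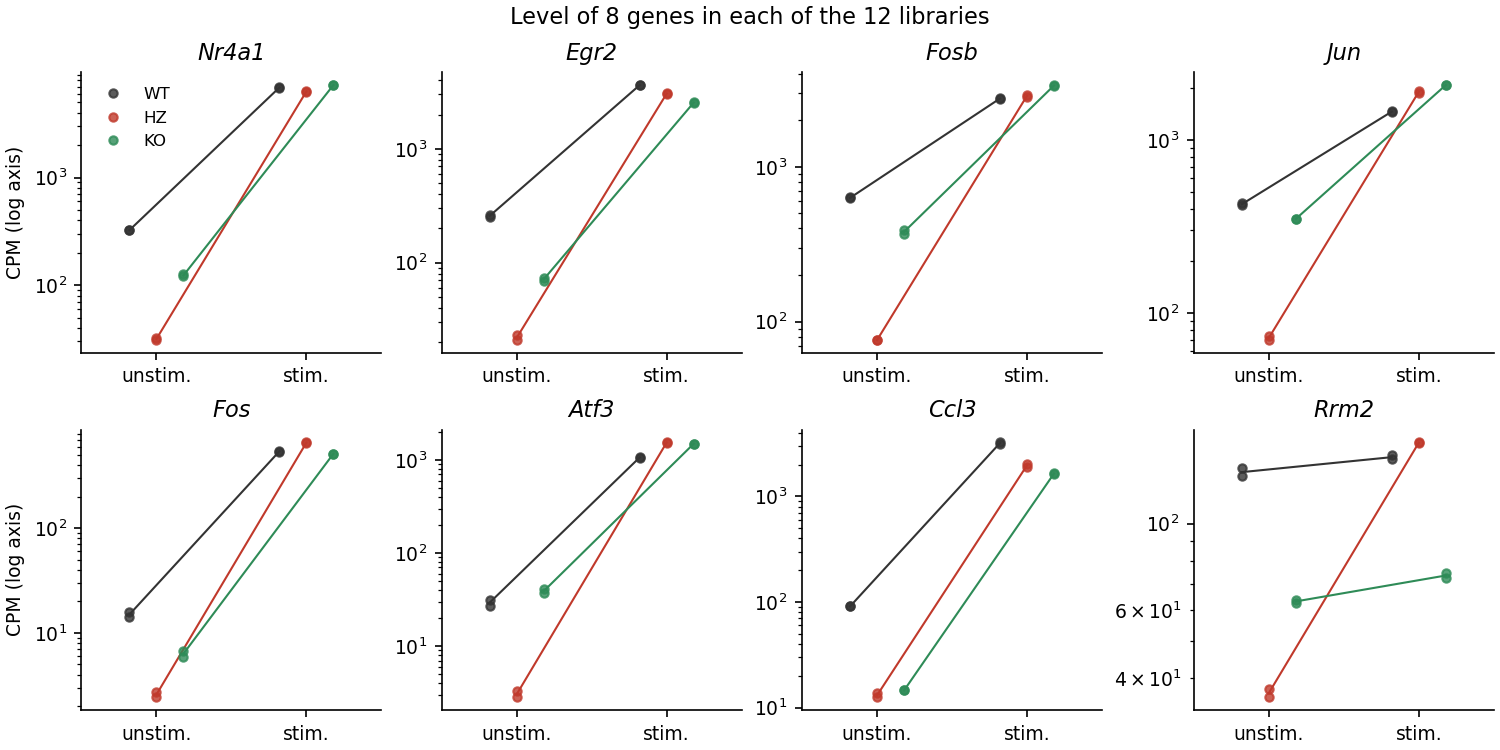
CPM on a log axis of 8 genes in each of the 12 libraries (dots, 2 per group), unstimulated and stimulated, with lines joining the group means of WT, HZ and KO. For *Nr4a1*, *Egr2*, *Fosb*, *Jun*, *Fos* and *Atf3* the unstimulated HZ libraries are the lowest, and the stimulated libraries of the 3 genotypes lie closer together, while the line of *Rrm2* is steep in HZ and nearly flat in WT and KO.

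Genes that damp MAP kinase and cytokine signalling had a pattern like that of the immediate-early genes. Of 21 genes for dual-specificity phosphatases, Sprouty, SPRED and SOCS proteins, 12 (57.1%) were higher and 4 (19%) lower, with a median difference of 0.59. Over all genes 19.9% were higher and 18.6% lower. *Dusp1*, a nuclear phosphatase of p38 and JNK, had 272 and 275 counts in unstimulated WT and 195 and 140 in HZ, and 5837 and 5853 against 13970 and 13229 after stimulation. Unlike most of these genes it differed mainly in the stimulated state, by 1.15 on the log2 scale, and its response difference was 1.85 (SE 0.11). *Dusp5*, which acts on ERK, was below WT in both states, with log2 differences of -2.38 before and -0.56 after stimulation. *Dusp14* and *Spry4* passed the test at few counts, with at most 33 counts in any WT or HZ library for *Dusp14*. *Dusp14* kept its call in 2 of 8 fits that each left out 1 library, those without unstimulated WT replicate 2 and without unstimulated HZ replicate 2. *Spry4* kept its call without unstimulated HZ replicate 2 and without stimulated HZ replicate 1, and lost it in the other 6. *Spry4*, an inhibitor upstream of ERK, had 0 and 2 counts in unstimulated HZ, so no fold is given, against 37 and 39 in WT. After stimulation it had 103 and 89 in WT and 15 and 23 in HZ.

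Regulators of NF-kappa B and NFAT did not share a direction. Of 21 NF-kappa B subunits, inhibitors and adaptors, 3 (14.3%) were higher and 6 (28.6%) lower, against 19.9% and 18.6% of all genes. *Nfkbid* and *Nfkbiz*, nuclear inhibitor-like proteins, responded by 5.45 and 4.77 in WT and by 6.90 and 6.01 in HZ. *Tnfaip3*, the ubiquitin-editing enzyme A20, fell in WT from 2076 and 1839 to 1125 and 1020 counts and rose in HZ from 3510 and 3160 to 4189 and 3719, a difference of 1.04 (SE 0.08). *Birc3*, a ubiquitin ligase, was lower (-0.59). Of 11 genes of calcineurin and NFAT, 4 were higher and 4 lower. *Rcan1*, the NFAT-induced calcineurin inhibitor, rose by 5.74 in WT and 6.11 in HZ, so its response differed by only 0.37 (SE 0.05). Among 11 factors of mRNA decay 6 were higher and 0 lower, with 1 lower at an unadjusted p below 0.05 and 1 by DESeq2. *Zfp36*, tristetraprolin, which destabilizes cytokine transcripts, differed by 1.13, and *Zc3h12a*, the nuclease Regnase-1, by 0.53.

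TCF targets as a list did not stand out from all genes, of which 19.9% were higher and 18.6% lower. Of 73 genes tested from the TCF signature used in the study, 19 (26%) were higher and 11 (15.1%) lower, with a median difference of 0.06. Its higher members with the largest values were *Egr2*, *Nr4a1*, *Fos* and *Ptgs2*. The TCFs and their partners leaned lower, with 8 of 15 lower and 2, *Srf* (0.26) and *Etv6* (0.20), higher. *Elk4* differed by -0.41 (SE 0.08, adjusted p = 7.9e-05) and *Elk3* by -0.42 (SE 0.11). *Elk1* had a response of 0.36 in WT and 0.36 in HZ (adjusted p = 0.983), and the 95% interval of its response difference ran from -0.23 to 0.24. *Mrtfa*, the actin-regulated SRF cofactor, fell by 1.05 in WT and by 1.66 in HZ. *Ets1* rose by 1.14 in WT and had a response of -0.06 in HZ. Of 18 cytoskeletal SRF targets 7 were higher and 7 lower, and the sign of their median changed with the setting. *Flna*, filamin A, was higher by 0.77 and *Vcl*, vinculin, lower (-0.43).

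Several inflammatory mediators rose more in HZ, though members of both lists were called in either direction. Of 27 cytokine and growth factor genes tested 10 (37%) were higher and 6 (22.2%) lower. Of 13 chemokine genes 5 (38.5%) were higher and 4 (30.8%) lower, where 19.9% and 18.6% of all genes were. The median difference of the chemokine genes was 0.75, and -0.82 without unstimulated WT replicate 2. Beside *Ccl3* and *Ccl4*, the higher chemokines were *Ccl7* (1.32), *Ccl1* (1.17) and *Ccl2* (0.49), and beside *Ccl24* and *Cxcl16* the lower ones were *Ccl9* (-1.07) and *Ccl6* (-0.52). *Ccl3* and *Ccl4*, chemokines that attract monocytes and T cells, started much lower in HZ and also stayed below WT. *Ccl3* had 3003 and 3184 counts in unstimulated WT and 433 and 449 in HZ, and 93761 and 97183 against 63036 and 59795 after stimulation. Its response was 5.14 in WT and 7.24 in HZ, a difference of 2.10 (SE 0.05). *Ccl4* differed by 2.22 (SE 0.07). A larger response of these chemokines thus went with a lower stimulated level, by 0.70 for *Ccl3* and 0.79 for *Ccl4* on the log2 scale.

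*Tnf* and *Il6* reached the WT level. *Tnf* had 211 and 236 counts in unstimulated WT, 69 and 97 in unstimulated HZ, 128432 and 132579 in stimulated WT and 139751 and 132016 in stimulated HZ. The stimulated groups overlapped in CPM, and the response difference was 1.41 (SE 0.11). *Il6* had 39493 and 39580 counts in stimulated WT and 45189 and 40559 in stimulated HZ, and its difference of 1.01 came from 1012 and 1012 against 1871 and 2111 counts at rest. *Il13*, a cytokine of type 2 immunity, had a response difference of 0.92 (SE 0.08) and remained below WT after stimulation by 0.37. *Lif*, an IL-6 family cytokine, had 3382 and 3182 counts in unstimulated HZ, 9645 and 10164 in unstimulated WT and between 153011 and 172415 in the stimulated libraries of both, with a difference of 1.41. *Spp1*, osteopontin, differed by 1.96 (SE 0.45). *Il1a* had 1 and 3 counts in unstimulated HZ and 35 and 33 in unstimulated WT, and 80 and 63 against 211 and 217 after stimulation, and its call was lost without unstimulated HZ replicate 1 (adjusted p = 0.119). Lower responses were seen for *Ccl24* and *Cxcl16* at few counts. *Cxcl16* went from 102 and 109 to 20 and 32 counts in HZ and from 16 and 10 to 12 and 19 in WT, and its adjusted p was 0.061 without stimulated WT replicate 2. *Ccl24* had at most 24 counts in any of these libraries and lost its call in 6 of 8 fits that left out 1 library, all but those without unstimulated HZ replicate 2 and without stimulated HZ replicate 2.

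The transcript of the enzyme that forms histamine differed in the opposite direction. *Hdc*, histidine decarboxylase, had 4345 and 4259 counts in unstimulated WT and 3969 and 3438 in unstimulated HZ. Stimulated WT libraries held 33145 and 32947 counts and stimulated HZ libraries 14428 and 12765, with no overlap. Its response was 3.14 in WT and 2.00 in HZ, and the difference of -1.14 (SE 0.05, adjusted p = 7.4e-23) lay almost entirely in the stimulated state. Of 22 genes for histamine, granule proteases and proteoglycan, 4 (18.2%) were higher and 11 (50%) lower, against 19.9% and 18.6% of all genes. *Mcpt4*, a chymase, had 1818 and 1741 counts in unstimulated HZ against 639 and 635 in unstimulated WT, and 1150 and 1108 against 646 and 573 after stimulation, a difference of -0.67. *Mcpt8* was higher by 0.81, with the limit that near-identical proteases can share reads. Of 10 genes of lipid mediator synthesis 3 were higher and 4 lower. *Ptgs2*, the inducible prostaglandin synthase COX-2, rose by 7.96 in WT and 10.06 in HZ. Its difference of 2.10 (SE 0.24) was 1.5 without unstimulated WT replicate 2, which had 138 counts against 66 in replicate 1, and 2.75 without unstimulated HZ replicate 2. *Pla2g7*, the platelet-activating factor hydrolase, was lower (-0.86), and *Ltc4s*, leukotriene C4 synthase, higher by 0.61.

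Genes of DNA replication had higher responses in HZ, where they started from a low unstimulated level. Of 43 S-phase genes tested 42 were higher and 0 lower, also by unadjusted p and by DESeq2, and 40 were higher by at least 1.5-fold, where 8.4% of all genes were. Their median response was -0.06 in WT and 1.32 in HZ. Their summed level was 3230 and 3250 CPM in unstimulated WT and 3490 in both stimulated WT libraries. In HZ it was 1720 and 1730 CPM before stimulation and 4090 and 4140 after it. The HZ libraries were thus the lowest of the 4 groups before stimulation and the highest after it. *Rrm2*, the small subunit of ribonucleotide reductase, had 4389 and 4862 counts in unstimulated WT and 1241 and 1240 in unstimulated HZ, and 4457 and 4366 against 5286 and 4789 after stimulation. Its response difference was 2.01 (SE 0.07, adjusted p = 5.6e-29). *Pole*, a replicative DNA polymerase, differed by 1.8, and *Mcm5*, a subunit of the replicative helicase whose promoter is shown above, by 1.4. *Ccne1* and *Ccne2*, cyclins of S-phase entry, differed by 1.98 and 1.59.

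G2/M genes were also higher in response, again from a low unstimulated level in HZ, but with another end point. Of 52 genes 47 were higher and 1, *Psrc1* (-0.70), lower, with a median response of -0.38 in WT and 0.73 in HZ. Their summed level was 3240 and 3270 CPM in unstimulated WT and 1220 in both unstimulated HZ libraries. After stimulation it was 2570 and 2530 in WT and 1980 and 1940 in HZ, so the HZ libraries stayed below WT. *Bub1* and *Ttk*, kinases of the spindle checkpoint, differed by 1.78 and 1.67, and *Ndc80*, a kinetochore protein, by 1.57. *Ccnb2*, cyclin B2, had 1617 and 1612 counts in unstimulated WT, 462 and 508 in unstimulated HZ, 983 and 1056 in stimulated WT and 555 and 470 in stimulated HZ. WT exceeded HZ in both states, and the response difference was 0.66 (SE 0.13). Of 19 G1 cyclins, kinases and inhibitors 11 (57.9%) were higher and 6 (31.6%) lower, against 19.9% and 18.6% of all genes. The lower ones were *Cdkn1b* (-0.79), *Cdkn2a* (-0.76), *Cdkn2b* (-0.48), *Rbl2* (-0.39), *Rb1* (-0.22) and *Cdk6* (-0.16). All but *Cdk6*, a kinase, encode inhibitors of the cell cycle or pocket proteins, and they are named here after their values were seen. Of 24 replication-dependent histone genes 0 were higher and 1 lower (5 and 2 at an unadjusted p below 0.05, 0 and 1 by DESeq2). The lower one was *H1f2* at -0.71. The share of histone transcripts captured was not stated.

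Ribosome biogenesis factors and ribosomal proteins went in opposite directions, where 19.9% of all genes were higher and 18.6% lower. Of 38 biogenesis factors 34 were higher and 1, *Polr1c* (-0.41), lower, with a median response of 0.27 in WT and 0.94 in HZ. Of 78 ribosomal protein genes 2, *Rps2* (0.36) and *Rpl12* (0.11), were higher and 62 lower, with a median of 0.26 in WT and -0.04 in HZ. The summed level of biogenesis factors in HZ was 2370 and 2390 CPM before and 4430 and 4470 after stimulation, against 3060 and 3000 before and 3930 in both libraries after in WT. Ribosomal proteins summed to 27700 and 28600 CPM in unstimulated HZ and to 26700 and 27600 in stimulated HZ, against 19700 and 19100 and then 23100 and 23200 in WT. *Wdr12* and *Utp4*, factors of large and small subunit assembly, differed by 1.14 and 0.99. *Rps27* and *Rps14* differed by -0.81 and -0.75 with standard errors of 0.06 and 0.05. For ribosomal proteins, reads can be shared with processed pseudogenes, so single members are less certain than the count.

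**Figure D4:**
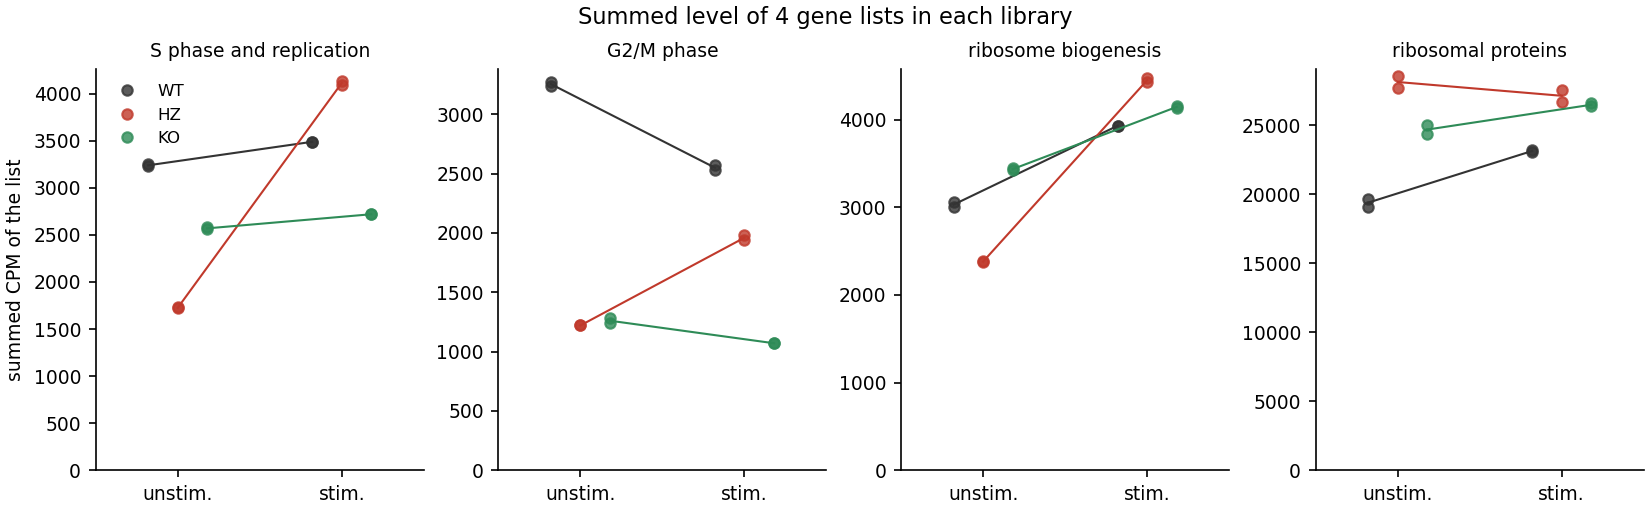
Summed CPM of the genes of 4 lists in each of the 12 libraries (dots, 2 per group), with lines joining the group means of WT, HZ and KO and y axes from 0. S-phase genes go from 1720 and 1730 to 4090 and 4140 CPM in HZ while WT and KO stay nearly level, and ribosomal proteins are nearly level in HZ.

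Chaperone genes were higher in response, where 19.9% of all genes were higher and 18.6% lower. Of 19 heat shock genes 14 were higher and 1, *Hspa4l* (-0.39), lower, with a median difference of 0.41. *Dnajb1*, an HSP40 co-chaperone, had 13711 and 14136 counts in unstimulated WT and 2852 and 2720 in HZ, and 89266 and 91015 against 63813 and 60126 after stimulation. It differed by 1.71 (SE 0.04), and *Hspa5*, the chaperone BiP of the endoplasmic reticulum, by 1.15 (SE 0.03). *Hspa1a* differed by 1.06 and shares nearly all its sequence with *Hspa1b*, which had -0.47 and did not pass. The ATF4 stress response was split, with 13 of 25 genes higher and 8 lower. Its higher members included *Psat1* (1.05), an enzyme of serine synthesis, and its lower members *Ddit3* (-1.30), which encodes CHOP, *Chac1* (-1.25), which degrades glutathione, and *Slc7a11* (-1.41), the cystine transporter. *Ddit3* went from 3670 and 3246 to 1359 and 1321 counts in HZ and from 2505 and 2574 to 2275 and 2333 in WT. Genes of oxidative phosphorylation were higher in 37 of 79, with a median difference of 0.19, and lower in 4, *Cox7a2l* (-1.37), *Cox6b2* (-0.96), *Ndufa6* (-0.70) and *Uqcrh* (-0.55). NRF2 targets (8 higher and 5 lower of 17) and hypoxia and glycolysis genes (10 and 8 of 27) had no shared direction. *Aldoc*, a brain-type aldolase, was lower (-1.91), as was *Ndrg1* (-1.08), while *Pgk1*, a glycolytic kinase, was higher by 0.51. Of 22 p53 targets 6 (27.3%) were higher and 10 (45.5%) lower. Of 15 BCL2 family genes 3 (20%) were higher and 4 (26.7%) lower, near the shares of all genes. *Bbc3*, the proapoptotic PUMA, fell by 1.57 in WT and by 3.00 in HZ. *Plk2* had 3 and 1 counts in unstimulated HZ and 29 and 32 in WT, and 129 and 117 against 484 and 467 after stimulation. The call of *Plk2* was lost without stimulated WT replicate 2 (adjusted p = 0.0533) and without unstimulated HZ replicate 2 (adjusted p = 0.211).

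**Figure D5:**
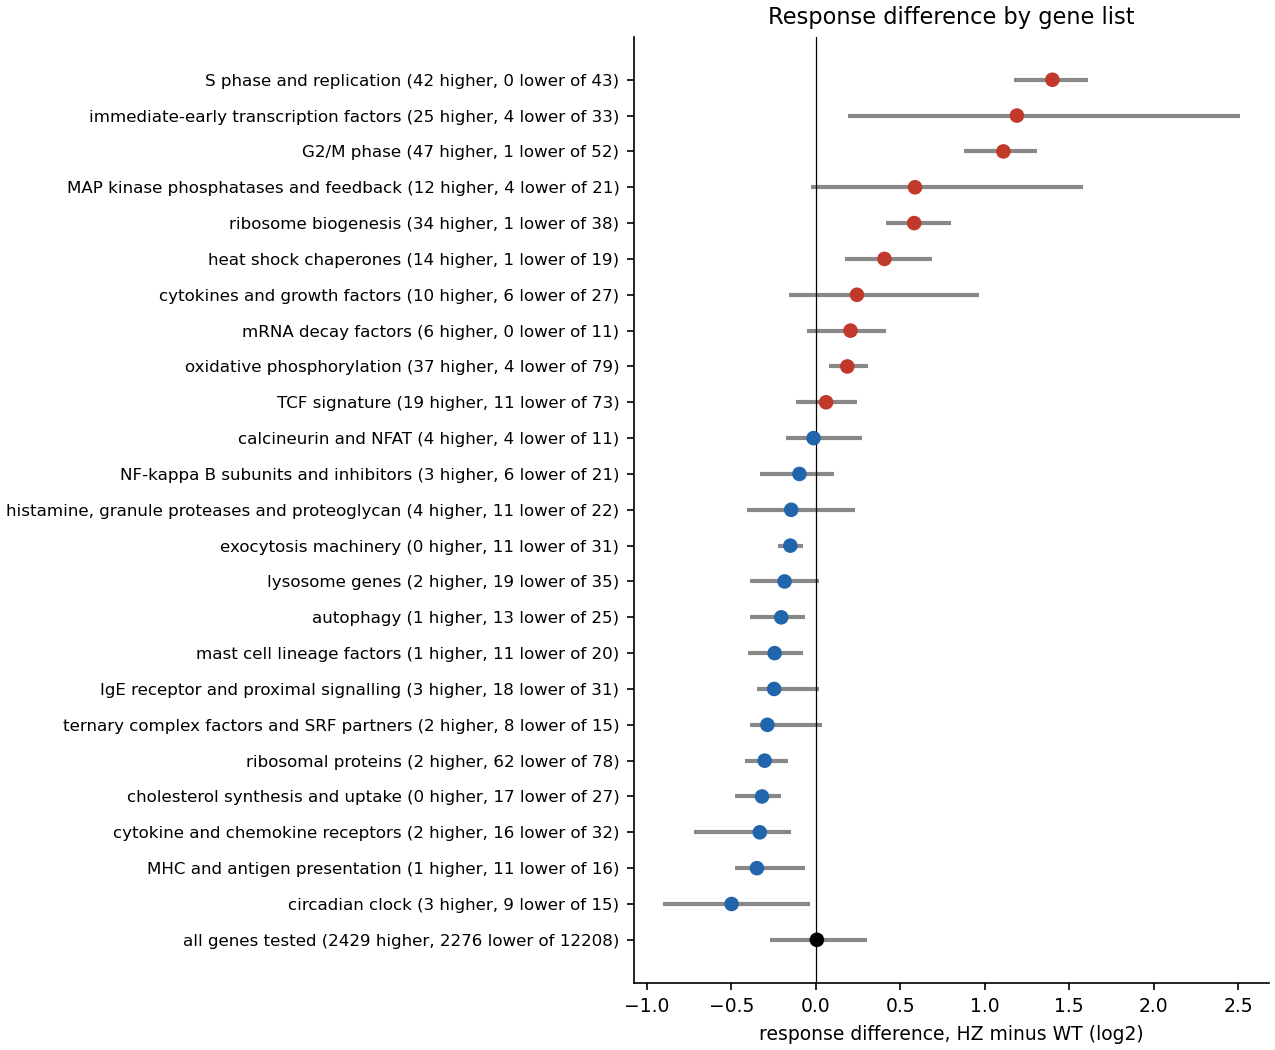
Median (dot) and quartiles (bar) of the response difference HZ minus WT on the log2 scale over the tested members of 24 gene lists and of all genes, with the number of members called higher and lower. S-phase, immediate-early and G2/M genes have medians of 1.4, 1.19 and 1.11, and the lists of receptors, MHC, cholesterol and ribosomal protein genes have medians from -0.35 to -0.30.

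Genes of mast cell identity and receptor signalling leaned lower, where 18.6% of all genes were lower and 19.9% higher. Of 31 genes for FcϵRI and its proximal signalling 18 were lower and 3, *Fyn* (0.31), *Plcg2* (0.23) and *Vav1* (0.18), higher, with a median response of 0.13 in WT and -0.05 in HZ. *Prkcd*, protein kinase C delta, went from 17671 and 16487 to 8843 and 8111 counts in HZ, and its response was -0.25 in WT and -0.89 in HZ. *Cblb*, a ubiquitin ligase that limits FcϵRI signals, differed by -0.77 and *Pik3cd*, a catalytic subunit of PI3 kinase, by -0.58. Of 16 inhibitory and accessory receptors 9 were lower and 1 higher. *Fcgr2b*, the inhibitory IgG receptor, differed by -0.73 (SE 0.08), and *Mrgprb2*, the receptor for basic secretagogues such as compound 48/80, was higher by 1.43 (SE 0.10). *Mrgprb2* fell in WT from 1196 and 1156 to 527 and 501 counts and in HZ had 1100 and 1041 before and 1428 and 1240 after stimulation. Cytokine and chemokine receptors were lower in 16 of 32 and higher in *Tnfrsf1b* (0.55) and *Il6st*, which lost its call without stimulated WT replicate 2 and without unstimulated HZ replicate 1. *Il10ra* rose by 1.13 in WT and 0.37 in HZ, and *Il1rap*, the shared chain of IL-1 and IL-33 receptors, differed by -0.87.

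Lineage factors were lower in 11 of 20 and higher in 1, *Bhlhe40* (0.11), where 18.6% of all genes were lower and 19.9% higher. *Hes1*, a target of Notch signals, differed by -1.18 (SE 0.20), and *Meis2*, a homeobox factor, by -0.57. Antigen presentation genes were lower in 11 of 16 and higher in 1. *Tap2*, a peptide transporter subunit, had 15597 and 14931 counts in unstimulated HZ and 10736 and 11190 in unstimulated WT, and 9558 and 8483 against 8986 and 9629 after stimulation, a difference of -0.60. Integrins and adhesion genes were lower in 8 of 19 and higher in 2. *Itgb2* had 1352 and 1357 counts in unstimulated HZ against 390 and 399 in unstimulated WT, and differed in response by -1.29 (SE 0.14).

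Lysosome, autophagy and exocytosis genes that were called were mostly lower, where 18.6% of all genes were lower and 19.9% higher. Of 35 lysosome genes 19 were lower and 2 higher. *Man2b1*, lysosomal alpha-mannosidase, had 15270 and 16320 counts in unstimulated WT and 24223 and 23101 in unstimulated HZ, and 12335 and 12622 against 9070 and 7788 after stimulation. HZ was thus above WT before and below WT after stimulation without overlap, and the difference was -1.23 (SE 0.04, adjusted p = 4.5e-28). *Glb1*, beta-galactosidase, differed by -0.83. *Galc* was higher by 2.14, but with 5 and 28 counts in unstimulated WT its value was 0.47 (adjusted p = 0.70) without unstimulated WT replicate 2 and 2.86 without unstimulated WT replicate 1. Of 25 autophagy genes 1, *Pik3c3* (0.26), was higher and 13 were lower, among them *Ulk1* (-0.67) and *Atg14* (-1.17), which act at the start of autophagosome formation. Of 31 exocytosis genes 11 were lower and 0 higher, with 0 higher also at an unadjusted p below 0.05 and by DESeq2, at a median of -0.15. *Sytl1*, a RAB27 effector, differed by -1.15, and *Snap23*, a SNARE of granule fusion, by -0.24.

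Cholesterol synthesis and uptake genes had lower responses in HZ, where 18.6% of all genes were lower and 19.9% higher. Of 27 genes 17 were lower and 0 higher, with 0 higher at an unadjusted p below 0.05 and by DESeq2. Their median response was 0.37 in WT and -0.01 in HZ, and their summed level went from 3150 and 3180 to 4410 and 4380 CPM in WT and from 4150 and 4110 to 4350 and 4340 in HZ. *Scd2* and *Scd1*, fatty acid desaturases that share SREBP control with the pathway, differed by -1.08 and -1.48. *Insig1*, the sterol-dependent brake on SREBP, rose by 1.09 in WT and 0.43 in HZ. Clock genes were lower in 9 of 15 and higher in *Nfil3*, *Clock* (0.43) and *Bhlhe40* (0.11), with a median of -0.50. *Dbp* and *Nr1d2*, outputs of the clock, went from 601 and 512 to 134 and 153 and from 3024 and 2691 to 968 and 823 counts in HZ, and differed by -1.43 and -1.35. *Nfil3*, their counterpart repressor, rose by 2.78 in WT and 4.24 in HZ. Interferon-stimulated genes (3 higher and 5 lower of 25) and chromatin regulators (6 and 6 of 25) did not share a direction, with *Ezh2* and *Dnmt1* higher by 1.05 and 1.00 and *Tet2* lower (-0.79). Of 333 tested genes named Zfp, 23 were higher and 53 lower, shares of 6.91% and 15.9%.

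Several of the largest lower responses came from genes that were high in unstimulated HZ BMMCs. *Enc1*, an actin-binding KELCH protein, had 2296 and 2306 counts in unstimulated WT and 7829 and 7450 in unstimulated HZ, and 3286 and 3410 against 2449 and 2327 after stimulation. It rose in WT and fell in HZ, with a difference of -2.29 (SE 0.07, adjusted p = 3.5e-31). *Abca1*, the cholesterol exporter, had 337 and 273 counts in unstimulated HZ against 26 and 30 in WT, and 91 and 58 against 29 and 40 after stimulation. Its difference was -2.41 (SE 0.41). *Slc6a12*, a betaine and GABA transporter, had the same form, with 274 and 279 counts in unstimulated HZ against 13 and 10 in WT and a difference of -2.44. *Nrgn*, neurogranin, had 534 and 465 counts in unstimulated HZ against 17 and 8 in WT and a difference of -2.29. *Slc6a12* was at -1.81 without stimulated WT replicate 2, and *Nrgn* at -2.96 without unstimulated WT replicate 1. *Gpx3*, a secreted glutathione peroxidase, had another form. It had 319 and 349 counts in unstimulated WT and 346 and 317 in unstimulated HZ, and after stimulation 306 and 271 in WT and 45 and 41 in HZ, so its difference of -2.81 (SE 0.26) lay in the stimulated state alone.

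Other genes with a large lower response rested on fewer counts. *Lag3*, an inhibitory receptor of lymphocytes, differed by -2.43 (SE 0.43), with 52 and 40 counts in stimulated HZ against 100 and 97 in stimulated WT. These counts show only the stimulated part of its difference, and its unstimulated part is not given. *Sema7a*, a membrane-bound semaphorin, rose from 4 and 9 to 137 and 146 counts in WT and from 34 and 25 to 90 and 106 in HZ. The difference of *Sema7a* was -2.76 (SE 0.58) and -3.41 without unstimulated WT replicate 2. *Fam177a2* had a response difference of -3.81 (SE 0.55), from 30 and 19 counts before to 83 and 38 after stimulation in WT and from 140 and 209 to 41 and 24 in HZ. It has a near-identical neighbour, so its reads may be split between copies, and its value was -3.14 without stimulated WT replicate 1. *Gm46139*, an uncharacterized gene, had 5 and 10 counts in stimulated HZ, and its difference of -2.49 was -3.14 without stimulated HZ replicate 2. Relative to WT, *Gm46139* in HZ was at 0.96 on the log2 scale before stimulation and at -1.53 after it. *Greb1* and *Rubcnl* lost their calls when 1 library was left out. *Greb1* (-2.54) was at -1.98 without unstimulated WT replicate 2 (adjusted p = 0.072), at -1.85 without stimulated WT replicate 1 (adjusted p = 0.22) and at -3.42 without unstimulated WT replicate 1. *Rubcnl* (-2.31) was at -1.44 (adjusted p = 0.070) without stimulated WT replicate 2.

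The 5 further genes with the lowest p among lower responses were abundant ones. *Prnp*, the prion protein gene, had 32999 and 35030 counts in unstimulated WT and 73181 and 71097 in unstimulated HZ, and 21682 and 21699 against 27845 and 25314 after stimulation. It fell in both genotypes, by 0.45 in WT and by 1.32 in HZ. *Tpt1*, which encodes the translationally controlled tumor protein, rose by 0.72 in WT and had a response of -0.22 in HZ. *Dennd4a* and *Rab38*, regulators of RAB-dependent trafficking, differed by -1.18 and -0.98 with standard errors of 0.04 and 0.04. *Man2b1*, given above, was the other.

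Among the largest higher responses, 3 genes were at the limit of detection in unstimulated HZ. *Ccn1*, a matricellular protein and SRF target, had 0 and 0 counts there and 17 and 15 in unstimulated WT, and 395 and 311 against 592 and 629 after stimulation. *Olr1*, the receptor for oxidized LDL, had 1 and 0 counts in unstimulated HZ and 178 and 185 in unstimulated WT, and 1144 and 937 against 8921 and 8783 after stimulation. *Pcp4l1* had 2 and 2 counts in unstimulated HZ and 88 and 109 in unstimulated WT, and 30 and 18 against 125 and 132 after stimulation. All 3 stayed below WT after stimulation. With HZ at or under 3 counts in each unstimulated library, no fold is given for them. *Gem*, a small GTPase, had 8 and 18 counts in unstimulated HZ against 63 and 77 in WT and differed by 2.98 (SE 0.31), or by 3.70 without unstimulated HZ replicate 2. *Usp17ld*, a deubiquitinase of a multicopy family whose reads may be shared, differed by 3.57 (SE 0.36) and went from 12 and 6 to 528 and 469 counts in HZ and from 128 and 90 to 414 and 538 in WT. For 2 further genes single libraries decided the call. *Entpd4b* had 18 and 149 counts in unstimulated WT and 29 and 208 in stimulated HZ, and its difference of 4.30 was 2.15 without unstimulated WT replicate 2 (adjusted p = 0.075) or without stimulated HZ replicate 2 (adjusted p = 0.057), and 5.12 and 5.14 without the other replicate of these groups. *LOC118567843* had 72 and 7 counts in stimulated WT and 10 and 89 in stimulated HZ, and its difference of 3.63 was 1.23 (adjusted p = 0.46) without stimulated HZ replicate 2 and 6.12 without stimulated WT replicate 1.

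KO BMMCs were set beside HZ with the same test. Of the 12208 genes tested, the KO response differed from the WT response in 1132 (9.27%), 664 higher and 468 lower. The HZ response differed from the KO response in 5067 genes (41.5%), 2602 higher and 2465 lower. Against WT, 2429 genes were higher and 2276 lower in HZ. List counts in HZ and in KO therefore stand against unlike shares of all genes. The comparisons share libraries, so their values are given side by side only. Of 33 immediate-early genes, the response was higher than in WT for 25 in HZ and 19 in KO, and higher in HZ than in KO for 20. *Nr4a1* responded by 4.40 in WT, 5.88 in KO and 7.64 in HZ, and *Egr2* by 3.82, 5.15 and 7.12. *Atf3* responded by 5.18 in WT, 5.26 in KO and 8.98 in HZ. *Ccl3* started from 544 and 515 counts in unstimulated KO, low as in unstimulated HZ, and responded by 6.83 in KO and 7.24 in HZ. *Ccl4* responded by 6.68 in KO and 7.17 in HZ. *Dusp1* responded by 6.39 in KO and 6.46 in HZ. S-phase genes were higher than in WT for 42 of 43 in HZ and for 0 in KO, where 1 was lower, and higher in HZ than in KO for 42. Ribosome biogenesis genes were higher than in WT for 34 of 38 in HZ and for 0 in KO, where 4 were lower. Ribosomal protein genes were lower than in WT for 62 of 78 in HZ and for 41 in KO, and cholesterol genes for 17 of 27 and 13. For *Hdc* the KO response lay above and the HZ response below that of WT. It was 3.14 in WT, 2.00 in HZ and 4.15 in KO, where it had 635 and 606 counts before and 8779 and 8360 after stimulation.

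Markers of the cells in culture moved with these results. Of 11 mast cell markers 9 were lower and 1 higher in response, where 18.6% of all genes were lower and 19.9% higher. Their summed level was 46600 to 47600 CPM in unstimulated WT, 51400 to 51500 in stimulated WT, 55800 to 57300 in unstimulated HZ and 48900 to 49700 in stimulated HZ. *Cpa3*, the mast cell carboxypeptidase, had 523539 and 547073 counts in unstimulated WT and 669763 and 646340 in unstimulated HZ, and 529107 and 524382 against 537739 and 489086 after stimulation, a difference of -0.41 (SE 0.02). Mast cell markers were thus high in all 8 libraries, as the labelled cell type requires. *Mrgprb1*, of the same list, was higher by 1.87. Of 9 basophil markers 6 were lower and 2 higher, with summed levels of 7940 to 9410 CPM in the 8 libraries. Several of these, such as *Cd200r3*, are also mast cell genes. *Cd69*, the early activation antigen, was higher by 1.44, from 6805 and 6606 to 40611 and 37256 counts in HZ and from 16022 and 17177 to 33652 and 33733 in WT.

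Markers of most other cell types were scarce. Of 14 macrophage and monocyte markers 8 were tested, with 3 lower and 1 higher, and their summed level was 169 to 170 CPM in unstimulated WT, 141 to 144 in stimulated WT and 101 to 109 in HZ in either state. Several defining markers were near 0, with at most 1 count of *Mrc1*, 6 of *C1qc* and 23 of *Csf1r*, the receptor for M-CSF, in any library. *Cd68*, a lysosomal protein of macrophages that mast cells also carry, was higher by 1.13, and *Cx3cr1*, a chemokine receptor of monocytes, had 3922 and 4248 counts in unstimulated WT and 2194 and 2026 in unstimulated HZ. Its response difference of -0.22 lost its call in 4 of 8 fits, those without replicate 1 of any of the 4 groups. Neutrophil and lymphocyte markers summed to under 1 CPM in each of the 8 libraries, with *Ltf*, lactoferrin, at 0, eosinophil markers to at most 7.51 and dendritic cell markers to at most 11. Of 8 tested erythroid and megakaryocyte markers 4 were lower and 0 higher, also by unadjusted p and by DESeq2. Over all genes 18.6% were lower and 19.9% higher. The red cell gene *Alas2* had at most 1 count in any library and *Pf4*, a platelet chemokine, at most 4. The sum of the list was 2360 to 2560 CPM in 3 of the groups and 3370 to 3390 in unstimulated HZ. *Gp1ba*, *Itga2b* and *Vwf*, genes of platelets and their precursors, had at least 9851 counts in each of these libraries and differed by -0.33, -0.63 and -0.34. The only stromal marker tested, *Vim*, which most blood cells carry, was higher by 0.74 (SE 0.04). The part of other cell types in the results was not tested.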

How the data were processed

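RNA from 12 BMMC libraries (WT, HZ and KO, unstimulated or stimulated, 2 each) was sequenced and deposited as 1 table of raw gene counts and 1 of FPKM. Per the labels, the authors used fastp, HISAT2, HTSeq and the GRCm39 build. Their settings, and whether counting used strand, are not given in the sources used here. The deposited counts were the basis of all main values, and the deposited FPKM values served as an alternative on the log2 scale. Counts were fitted with edgeR (4.0.16, R 4.3.3) in a model with 6 group means, after filterByExpr and with TMM factors. The response difference was tested two-sided by edgeR's quasi-likelihood test with 6 residual degrees of freedom and Benjamini-Hochberg adjustment over 12208 genes. A gene was called at an adjusted p below 0.05. Fold changes carried a prior count of 0.125, and SE was the estimate divided by the root of F. Intervals are 95%. Totals of 29697958 to 35531667 counts set the precision, and SEs cover the spread between libraries only.

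Members and gene lists were chosen with earlier results of these data known. The rule for named genes took, in each direction, the 12 largest called differences whose highest group averaged 100 counts or more, then the 5 further genes with the lowest p, then *Hdc*, *Il6*, *Tnf*, *Ccl3*, *Ccl4*, *Il13*, *Ccnb2* and *Elk1*, *Elk3* and *Elk4*, and from each list up to 4 called members with the largest size or, where none was called, the 2 with the highest mean. From these, values are given where they add to the account. A few items are not reported here. No fold was given where every library of a group held 3 counts or fewer. Members of lists named outside this rule (such as *Nab2*, *Ccl7*, *Cdkn1b*, *Fyn* and *Rps2*) were chosen after their values were seen. Scripts were tested on simulated data. Alternatives were DESeq2 (1.42.0), its size factors, library totals, other filters, thresholds and prior counts, the WT and HZ libraries alone, replicate blocks, limma (3.58.1) on log2(FPKM + 1) and log2(FPKM + 0.1), and the removal of each library in turn.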

Additional observations from a re-analysis of the deposited data

Results flagged for a closer look

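The response to IgE-DNP/HSA differed between HZ and WT in 4705 genes and between HZ and KO in 5067 genes, each by a test of the difference itself (edgeR's quasi-likelihood test, Benjamini-Hochberg adjustment over all genes tested). The values given here are those of 38 genes that were named for the size or p of their difference from WT or singly, and whose HZ response also differed from that in KO. Genes named only from lists are not included. The comparisons share the HZ libraries, so the values below are no independent support for those against WT.

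Among immediate-early genes, the HZ response exceeded the KO response by 3.72 for *Atf3*, 3.22 for *Egr4*, 2.16 for *Jun*, 2.10 for *Fosb*, 1.97 for *Egr2*, 1.76 for *Nr4a1*, 1.10 for *Egr1*, 1.02 for *Egr3* and 0.99 for *Csrnp1* on the log2 scale. Among mediators it exceeded the KO response by 1.30 for *Tnf*, 0.61 for *Il13*, 0.49 for *Ccl4*, 0.44 for *Il6*, 0.41 for *Ccl3* and 0.36 for *Lif*, and for *Hdc* the difference was -2.16. *Ccnb2* differed by 0.66, *Gem* by 2.17, and *Usp17ld* and *Entpd4b*, members of families with near-identical copies, by 3.41 and 2.69.

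Lower responses in HZ than in KO were seen for the ternary complex factors *Elk3* (-0.51) and *Elk4* (-0.50) and for abundant genes, *Prnp* (-0.67), *Rab38* (-0.83), *Tpt1* (-0.87), *Man2b1* (-1.21) and *Dennd4a* (-1.29). Further lower responses were those of *Nrgn* (-1.26), *Lag3* (-1.37), *Enc1* (-1.70), *Abca1* (-1.85), *Fam177a2* (-1.92), *Slc6a12* (-2.04), *Gm46139* (-2.31), *Cxcl16* (-2.39), *Rubcnl* (-2.44), *Gpx3* (-2.72) and *Greb1* (-2.93).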

How the results depend on the processing

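Most alternatives changed 1 choice, while DESeq2 also changed size factors and dispersions, and limma on FPKM also changed the values, scaling and filter. The counts of 2429 higher and 2276 lower responses stayed within 1.5 times their values except at a 2-fold threshold, which left 484 and 247 by its construction. Without 1 library at a time, 2119 to 2239 genes were higher and 2011 to 2139 lower, and at 1.5-fold or more 969 to 1015 and 613 to 663. With limma on log2(FPKM + 1), 334 genes were lower by 1.5-fold or more, and 333 with no filter on low values, against 657, and the cause was not tested. DESeq2 gave 2037 higher and 2221 lower. Library totals in place of TMM gave 3120 higher and 1721 lower. Robust dispersion, added after the data were seen, gave 2449 and 2288. Same-numbered replicates did not deviate together, with correlations of their deviations of -0.0226 in WT, 0.0629 in HZ and -0.0207 in KO over 9858 genes, so the numbers were not taken as pairs. A replicate block gave 2468 higher and 2301 lower, and a block within genotype 2451 and 2281.

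Over the named genes and alternatives, 4140 values stayed on their side of the threshold, 242 lost the call and 2 gained it, and for genes called in the report 10 values changed sign. *Elk1* and *Prtn3*, which were not called, also had values of either sign. The 10 values were all of genes with at most 3 counts in each unstimulated HZ library, on the FPKM scale. With log2(FPKM + 1), filtered or not, *Ccn1* was at -0.40, *Il1a* at -0.46, *Olr1* at -1.59 and *Plk2* at -1.01. *Plk2* was at -0.0068 with log2(FPKM + 0.1), and *Spry4* at -0.12 with log2(FPKM + 1) and no filter. The cause of these was not tested.

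Depth limits the weakest genes. The median SE of 0.848 for genes under 100 counts leaves small differences there undetectable, and the calls of *Entpd4b* and *LOC118567843* were also lost with robust dispersion (adjusted p of 0.106 and 0.247).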
